A study of Mus musculus with 11 samples.

Results

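The genes of major histocompatibility complex (MHC) class II antigen presentation were followed in RNA sequencing libraries of lacrimal glands from male nonobese diabetic (NOD) mice. The 10 members were taken by name, namely *H2-Aa*, *H2-Ab1*, *H2-Eb1*, *H2-Oa*, *H2-Ob*, *H2-DMa*, *H2-DMb1*, *H2-DMb2*, *Cd74* and *Ciita*. They are 10 of the 19058 genes in the deposited table, and all 10 were among the 13937 genes that had 30 or more counts in the WT mice together, the filter for testing. On GRCm38 the 8 *H2* genes lie on chromosome 17 between position 34092340, the start of *H2-Oa*, and 34316674, the end of *H2-Eb1*, while *Cd74* is on chromosome 18 and *Ciita* on chromosome 16. The mice were 3 WT, 5 *Tlr7* KO and 3 *Ifnar1* KO NOD males, with 1 library from 1 lacrimal gland of each mouse. WT and *Tlr7* KO mice were 20 to 22 weeks old, and the age of the *Ifnar1* KO mice is not given in the sources used here. The *Tlr7* KO line carries a small germline CRISPR/Cas9 deletion, 1 allele bred to homozygosity, in the gene of the RNA sensor TLR7. The *Ifnar1* KO line, also germline and homozygous, lacks a chain of the type I interferon (IFN) receptor. NOD males develop lymphocytic infiltrates in the lacrimal gland, and the comparisons ask how class II transcripts in whole glands differ when either gene is missing.

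MHC class II molecules are pairs of an alpha and a beta chain that carry peptides from the endosome to the cell surface, where CD4+ T cells read them. The invariant chain, encoded by *Cd74*, fills the groove of a new class II molecule and guides it to the endosome. There H2-DM, a pair of *H2-DMa* with an *H2-DMb* chain, helps to exchange the remnant of the invariant chain for peptide, and H2-DO, the pair of *H2-Oa* and *H2-Ob*, holds H2-DM back. Class II genes are expressed mainly in B cells, dendritic cells and macrophages, H2-DO is known chiefly from B cells, and *Ciita* encodes the coactivator that switches the family on. In the mouse, *H2-Aa* and *H2-Ab1* encode the chains of I-A and *H2-Eb1* the beta chain of I-E. NOD mice are known to lack I-E at the cell surface because they do not make its alpha chain.

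Class II genes share a promoter module, the X and Y boxes, through which the RFX and NF-Y complexes and CIITA act. The promoter windows of the members are shown because the 10 transcripts moved together. Windows of 250 bases before to 50 bases after the transcription start were taken for 7 members from a table of RefSeq windows on the build GRCm38.p6, and those of *H2-Ab1*, *Cd74* and *Ciita* were not analysed here. The windows come from the reference genome and not from NOD. They were searched on both strands for a Y box, TGATTGG, and for a core of the X box, AGCAAC. These letters, which do not overlap each other, were picked after the windows had been looked at. The 7 members had 8 windows, since *H2-DMa* had 2. The Y box was found in 6 of the 8, 1 for each member other than *H2-DMa*, all on the strand of the gene, against 7.82% of all 32851 windows of that length in the table. The X core was found in 3 of the 8 windows, against 14.8% of all windows, and both motifs were together in 1.37% of all windows. The stretches from 110 to 31 bases before the start are given for the H2-DO chains, *H2-Oa* and *H2-Ob*, and for *H2-Eb1* and *H2-Aa* for comparison, with the X core and the Y box in capitals.
H2-Oa: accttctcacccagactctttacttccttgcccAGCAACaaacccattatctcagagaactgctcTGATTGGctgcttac
H2-Ob: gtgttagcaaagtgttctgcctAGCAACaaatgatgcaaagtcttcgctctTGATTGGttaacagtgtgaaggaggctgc
H2-Eb1: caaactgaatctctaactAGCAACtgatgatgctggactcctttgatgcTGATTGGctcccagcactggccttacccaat
H2-Aa: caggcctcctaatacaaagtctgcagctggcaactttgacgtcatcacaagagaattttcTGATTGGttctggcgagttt
On chromosome 17 these stretches lie at chr17:34092269-34092348, chr17:34238795-34238874 and chr17:34305757-34305836 on the plus strand and at chr17:34287854-34287933 on the minus strand. The Y box began 45 bases before the start in *H2-Oa*, 59 in *H2-Ob*, 61 in *H2-Eb1* and 50 in *H2-Aa*. It followed the X core after 26 bases in *H2-Oa*, 23 in *H2-Ob* and 25 in *H2-Eb1*. Both H2-DO genes thus held the same pair of letters in nearly the same spacing as *H2-Eb1*. *H2-DMb2* and *H2-DMb1* held the Y box without the X core, at 92 and 63 bases before the start, and neither motif was in the windows of *H2-DMa*. A match is a run of letters and not a measured binding site, and no match says only that these letters are not in the window.

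Between 20512315 and 28814250 counts per library were assigned to genes, and the 3-count floor corresponded to 0.082 to 0.158 CPM (the count as a rate per library, scaled with edgeR's TMM factors). The labels were checked first. *Tlr7*, whose deletion leaves most of the transcript in place, was at 1.52 to 2.94 CPM in WT and 0.494 to 0.949 CPM in *Tlr7* KO, and at 0.251 to 0.822 CPM in *Ifnar1* KO. *Ifnar1* was at 10.5 to 15.1 CPM in WT, 8.34 to 9.63 CPM in *Ifnar1* KO and 8.34 to 11.2 CPM in *Tlr7* KO, so the level of neither transcript separates the KO lines from each other. Salivary gland genes summed to 3122 CPM in WT 3, 222 CPM in *Ifnar1* KO 1 and 2743 CPM in *Ifnar1* KO 2, and to no more than 3.54 CPM in the other 8 libraries. The authors had left out a further *Ifnar1* KO mouse because its gland was inflamed and clustered with WT, and it was not analysed here, so the *Ifnar1* KO values describe the mice that were kept. In whole glands, fewer cells of a type and less RNA per cell cannot be told apart.

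All 10 members were lower in *Tlr7* KO than in WT glands, by between 3.78-fold for *H2-Aa* and 13.8-fold for *H2-Ob*. All 10 were also lower in *Ifnar1* KO glands, by between 6.13-fold for *Cd74* and 20.7-fold for *H2-Ob*. Genes were fitted with the quasi-likelihood test of edgeR, p values were adjusted by Benjamini-Hochberg over all genes tested, and a gene with an adjusted p under 0.05 is called DE. Among all genes tested, 17.4% were DE and lower in *Tlr7* KO and 15.3% DE and higher, and 12.4% were DE and lower in *Ifnar1* KO and 6.76% DE and higher. On the log2 scale the members had a median change of -2.09 in *Tlr7* KO glands and of -3.13 in *Ifnar1* KO glands, against -0.04 and -0.02 over all genes tested. With library size as the only scaling, the median of all genes in *Tlr7* KO moved to -0.54 and the members' folds grew by more than 1.5 times, with log2 values of -2.53 for *H2-Aa*, -2.95 for *Ciita* and -4.41 for *H2-Ob*. The same WT mice entered both comparisons. The *Ifnar1* KO call depended on the mice in the fit: 0 of the 10 members were DE by edgeR without WT 1, without WT 3, without *Ifnar1* KO 1 or without *Ifnar1* KO 3, with adjusted p between 0.0676 and 0.102. In these fits, in that order, 13 of 13114, 103 of 12903, 0 of 13937 and 0 of 13937 genes tested were DE in all, and all 10 members had an unadjusted p under 0.05. *H2-Aa* was then at -2.49, -2.54, -2.54 and -2.32 on the log2 scale, in place of -2.69 with all 6 mice. Without *Ifnar1* KO 2, the highest mouse of its group, all 10 members were DE, among 1590 of 13937 genes tested. Their fitted fold changes were then more than 1.5 times as large, with *H2-Aa* at -3.38, *H2-DMb1* at -4.73, *H2-Ob* at -5.59 and *H2-Oa* at -5.71. By DESeq2 all 10 members were DE in both comparisons, among 4599 of 13905 genes tested for *Tlr7* KO and 3356 of 13923 for *Ifnar1* KO.

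**Figure D1:**
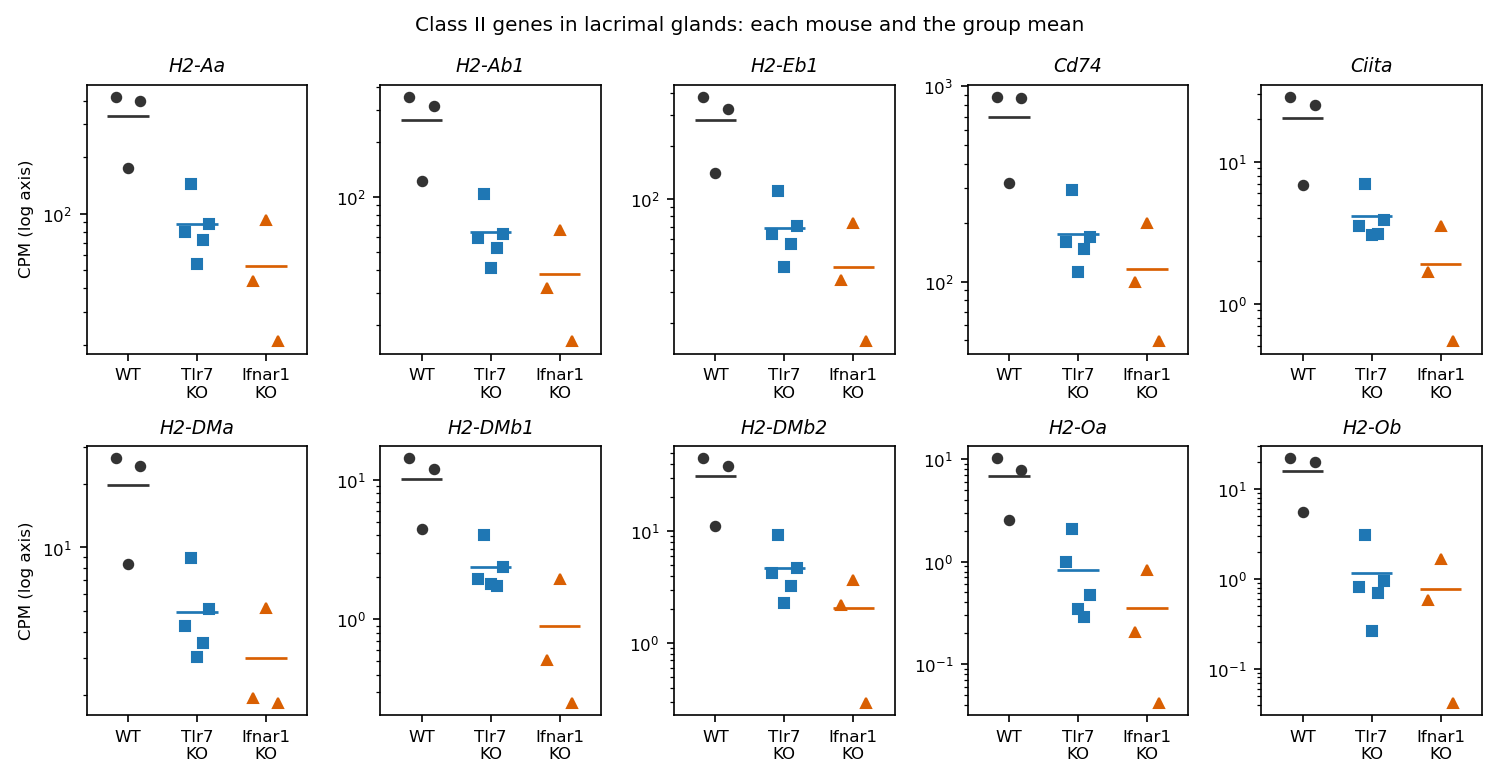
Level of each class II gene in CPM (log axis) in WT, *Tlr7* KO and *Ifnar1* KO lacrimal glands, with 1 point per mouse and a line at the group mean. WT 2 lies well below the other WT mice in every panel, and the highest *Tlr7* KO mouse reaches or passes it for *H2-DMa* and *Ciita*.

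*Cd74*, the invariant chain, had the highest CPM of the members. It was at 885, 319 and 877 CPM in WT 1 to 3, at 160, 293, 112, 147 and 169 CPM in *Tlr7* KO 1 to 5, and at 99.0, 199 and 49.4 CPM in *Ifnar1* KO 1 to 3. The lowest WT mouse stood above every KO mouse, and *Tlr7* KO 2 came nearest to it. *Cd74* fell by 1.98 on the log2 scale in *Tlr7* KO (SE 0.37, adjusted p = 0.00474) and fell by 2.62 in *Ifnar1* KO (SE 0.59, adjusted p = 0.0274).

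*H2-Aa*, the I-A alpha chain, was at 419, 175 and 400 CPM in WT, at 80.0, 145, 54.2, 72.2 and 87.9 CPM in *Tlr7* KO and at 43.7, 93.0 and 20.9 CPM in *Ifnar1* KO. Its partner *H2-Ab1*, the I-A beta chain, was at 352, 122 and 312 CPM in WT, at 59.3, 104, 41.0, 52.7 and 62.7 CPM in *Tlr7* KO and at 31.7, 65.5 and 16.2 CPM in *Ifnar1* KO. Both chains ordered the mice alike, with WT 2 lowest of the WT, *Tlr7* KO 2 and *Ifnar1* KO 2 highest of their groups, and no overlap between WT and either KO. *H2-Aa* fell by 1.92 on the log2 scale in *Tlr7* KO (SE 0.34, adjusted p = 0.00407) and fell by 2.69 in *Ifnar1* KO (SE 0.57, adjusted p = 0.0257). *H2-Ab1* fell by 2.04 (SE 0.36, adjusted p = 0.00399) and fell by 2.83 (SE 0.58, adjusted p = 0.0249), respectively.

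*H2-Eb1*, the I-E beta chain, was at 382, 141 and 327 CPM in WT, at 63.3, 111, 41.4, 55.8 and 70.6 CPM in *Tlr7* KO and at 34.7, 73.7 and 15.7 CPM in *Ifnar1* KO. Its groups were apart in the same way, and it fell by 2.05 on the log2 scale in *Tlr7* KO (adjusted p = 0.00364) and fell by 2.81 in *Ifnar1* KO (adjusted p = 0.0259). *H2-Ea-ps*, the locus of the I-E alpha chain, had 2 counts in all 11 libraries together in the second deposited count table, and no more than 1 in any mouse. The beta chain transcript was therefore present at more than 100 CPM in every WT gland while its alpha partner was at or under the floor. *H2-Eb2*, a neighbouring class II beta gene that is no member, was at 2.78 to 6.70 CPM in WT and fell by 2.84 in *Tlr7* KO (adjusted p = 0.00263) and fell by 3.45 in *Ifnar1* KO (adjusted p = 0.0216).

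*Ciita* was at 28.9, 6.83 and 25.4 CPM in WT, at 3.52, 7.04, 3.08, 3.13 and 3.91 CPM in *Tlr7* KO and at 1.67, 3.55 and 0.544 CPM in *Ifnar1* KO. Here *Tlr7* KO 2 stood above WT 2, so that the WT and *Tlr7* KO groups overlapped by this pair of mice, whereas WT and *Ifnar1* KO did not overlap. *Ciita* fell by 2.31 on the log2 scale in *Tlr7* KO (SE 0.43, adjusted p = 0.00479) and fell by 3.43 in *Ifnar1* KO (SE 0.71, adjusted p = 0.025).

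*H2-DMa*, the alpha chain of the peptide exchange factor, was at 26.4, 8.35 and 24.2 CPM in WT, at 4.25, 8.91, 3.04, 3.54 and 5.12 CPM in *Tlr7* KO and at 1.94, 5.19 and 1.84 CPM in *Ifnar1* KO. As for *Ciita*, *Tlr7* KO 2 was above WT 2 and the *Ifnar1* KO mice were all below the WT mice. *H2-DMa* fell by 2.0 on the log2 scale in *Tlr7* KO (SE 0.41, adjusted p = 0.00682) and fell by 2.75 in *Ifnar1* KO (SE 0.55, adjusted p = 0.0237).

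The beta chains *H2-DMb1* and *H2-DMb2* are near-identical neighbours: 31.4% of the 31-base words in *H2-DMb1* transcripts also occur in *H2-DMb2*, so how reads were split between them is uncertain. *H2-DMb1* was at 14.3, 4.43 and 11.9 CPM in WT, at 1.95, 4.0, 1.78, 1.73 and 2.38 CPM in *Tlr7* KO and at 0.51, 1.94 and 0.251 CPM in *Ifnar1* KO. *H2-DMb2* was at 44.8, 11.2 and 38.1 CPM in WT, at 4.21, 9.26, 2.28, 3.21 and 4.64 CPM in *Tlr7* KO and at 2.21, 3.66 and 0.293 CPM in *Ifnar1* KO. Neither gene overlapped between WT and either KO. Their sum was 41.6 ± 22.9 CPM in WT (SD, n = 3), 7.09 ± 3.63 in *Tlr7* KO (SD, n = 5) and 2.96 ± 2.54 in *Ifnar1* KO (SD, n = 3). *H2-DMb1* fell by 2.12 on the log2 scale in *Tlr7* KO (adjusted p = 0.00428) and fell by 3.52 in *Ifnar1* KO (adjusted p = 0.0244), and *H2-DMb2* fell by 2.75 (adjusted p = 0.00405) and fell by 3.95 (adjusted p = 0.0235).

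*H2-Oa*, the alpha chain of the H2-DM inhibitor, was at 10.2, 2.57 and 7.90 CPM in WT, at 0.995, 2.09, 0.342, 0.288 and 0.475 CPM in *Tlr7* KO and at 0.204, 0.822 and 0.0419 CPM in *Ifnar1* KO. These values rested on 61 to 299 counts per WT mouse, 7 to 48 per *Tlr7* KO mouse and 1 to 22 per *Ifnar1* KO mouse. The groups were apart, and only *Ifnar1* KO 3 was under the floor of 3 counts. *H2-Oa* fell by 3.04 on the log2 scale in *Tlr7* KO (SE 0.61, adjusted p = 0.00628) and fell by 4.28 in *Ifnar1* KO (SE 0.82, adjusted p = 0.023).

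*H2-Ob*, its beta partner, was at 22, 5.48 and 19.9 CPM in WT, at 0.803, 3.09, 0.266, 0.70 and 0.95 CPM in *Tlr7* KO and at 0.578, 1.68 and 0.0419 CPM in *Ifnar1* KO. It had 130 to 729 counts per WT mouse, 7 to 71 per *Tlr7* KO mouse and 1 to 45 per *Ifnar1* KO mouse. The WT group was again clear of both KO groups, and *Ifnar1* KO 3, with 1 count, was again under the floor. *H2-Ob* fell by 3.79 on the log2 scale in *Tlr7* KO (SE 0.63, adjusted p = 0.00319) and fell by 4.37 in *Ifnar1* KO (SE 0.85, adjusted p = 0.0235), the lowest fitted values of the 10 members in each comparison. The mean *H2-Ob* level in *Tlr7* KO was 7.35% of the WT mean, and in *Ifnar1* KO 4.86%.

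In sum, 8 of the 10 members did not overlap between WT and *Tlr7* KO mice, where 14.2% of all genes tested were lower with no overlap. In the comparison with *Ifnar1* KO all 10 did not overlap, against 21.1% of all genes tested. WT 2 was the WT mouse nearest to the KO mice for every member, and without it the *Tlr7* KO fold changes were larger, with *H2-Ab1* at -2.38 and *H2-Ob* at -4.19 on the log2 scale. Without *Tlr7* KO 2, the highest mouse of its group for every member, *H2-Oa* was at -3.70 and *H2-Ob* at -4.57. The 10 members summed to 2186 CPM in WT 1 and 2043 CPM in WT 3, whose salivary gland genes summed to 0.889 and 3122 CPM. Without WT 3 all 10 members were DE in *Tlr7* KO, among 2601 of 12903 genes tested, and *H2-Ab1* was at -1.90 on the log2 scale.

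**Figure D2:**
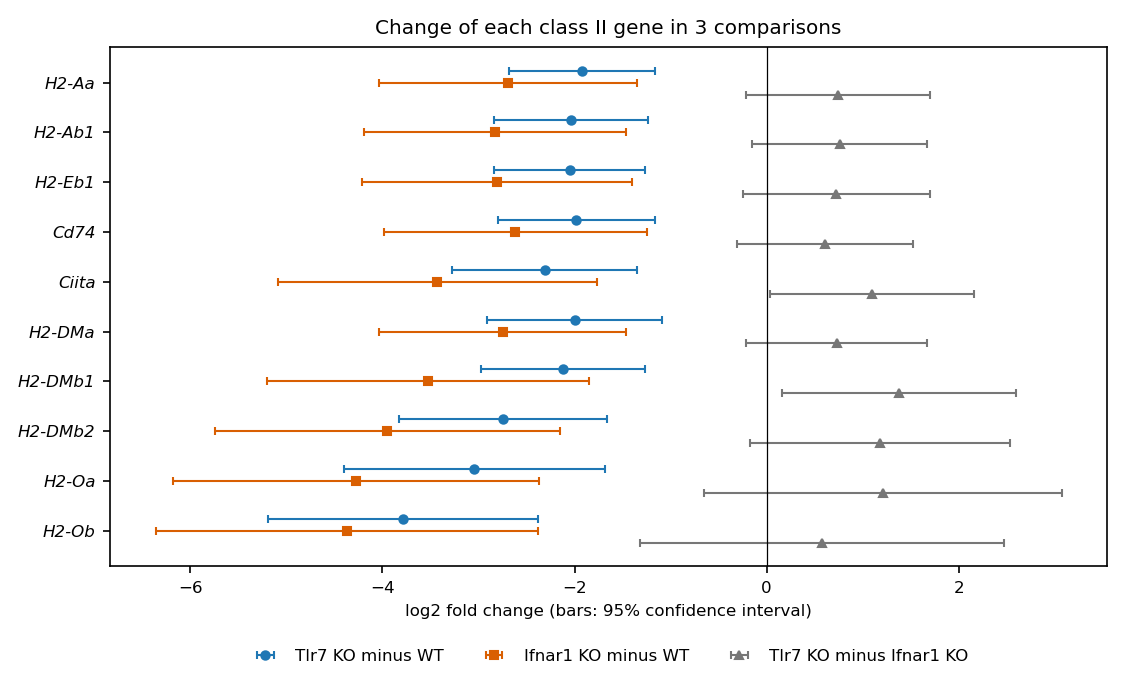
Log2 fold change of each class II gene with its 95% confidence interval in the 3 comparisons. All intervals for *Tlr7* KO and *Ifnar1* KO against WT lie below 0, with *H2-Oa* and *H2-Ob* furthest left, and 8 of the 10 intervals of *Tlr7* KO against *Ifnar1* KO include 0.

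The KO groups were then compared directly, since the shared WT mice cannot show whether one KO lowered class II transcripts more than the other. The fitted difference, *Tlr7* KO minus *Ifnar1* KO, was positive for all 10 members, from 0.58 for *H2-Ob* to 1.38 for *H2-DMb1* on the log2 scale. The sign for *H2-Ob* depended on *Tlr7* KO 2, since its difference was -0.20 without that mouse (adjusted p = 0.934). Without *Ifnar1* KO 3 the difference for *H2-Ob* kept its sign but shrank to 0.04 (adjusted p = 0.987). By edgeR's quasi-likelihood test 0 of the 10 members were DE (adjusted p from 0.253 to 0.776), where 1.79% of all genes tested were DE in either direction. DESeq2 gave 0 as well, where 242 genes were DE and lower and 328 DE and higher of 13877 tested. An edgeR fit with replicate number as a block differed: most members were DE and higher in *Tlr7* KO. In that fit 134 genes were DE and lower and 368 DE and higher of 13937 tested. The labels do not say that these numbers pair mice. An unadjusted p under 0.05 in the edgeR fit was reached by 2 members, *H2-DMb1* and *Ciita*, whose adjusted p were 0.253 and 0.296. For *H2-Ab1* the difference was 0.76 with a 95% interval from -0.15 to 1.67, so equal levels lay within it. All 10 members overlapped between the KO groups. *Ifnar1* KO 2, a library with salivary gland genes, was the highest *Ifnar1* KO mouse for every member, and without it 3 members were DE and higher in *Tlr7* KO, where 877 of the 13937 genes tested were DE in place of 250. Without all 3 libraries with salivary gland genes, which leaves 1 *Ifnar1* KO mouse, 2 members were DE, among 331 of 12903 genes.

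*H2-Oa* and *H2-Ob* were next set against the other class II genes. On the log2 scale their median was -3.41 for *Tlr7* KO, where the other 8 members lay between -2.75 and -1.92 with a median of -2.05. For *Ifnar1* KO it was -4.33, where the other 8 lay between -3.95 and -2.62 with a median of -2.82. The fitted fall of both H2-DO chains was thus outside the range of the other members in each comparison. Whether the difference held mouse by mouse was examined with 4 ratios of counts within a library, which do not depend on scaling between libraries. Alpha chains were set against alpha chains and beta chains against beta chains.

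The log2 ratio of *H2-Ob* to *H2-Ab1* was -4.0, -4.47 and -3.97 in WT, -6.17, -5.07, -7.17, -6.19 and -6.01 in *Tlr7* KO and -5.73, -5.27 and -8.02 in *Ifnar1* KO. Every KO mouse was below every WT mouse. The mean difference from WT was -1.97 in *Tlr7* KO (exact permutation p = 0.0179, two-sided, adjusted p = 0.107) and -2.19 in *Ifnar1* KO (exact permutation p = 0.1, adjusted p = 0.15). No smaller p was possible with these numbers of mice, and adjustment was over 12 tests, the 4 ratios in 3 comparisons.

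The log2 ratio of *H2-Oa* to *H2-Aa* was -5.36, -6.08 and -5.66 in WT, -6.30, -6.10, -7.23, -7.87 and -7.45 in *Tlr7* KO and -7.63, -6.79 and -8.38 in *Ifnar1* KO. The groups were apart, but WT 2 and *Tlr7* KO 2 lay next to each other, and in the second count table *Tlr7* KO 2, at -4.97, was above WT 2, at -5.09, so that WT and *Tlr7* KO overlapped. Set against WT, the difference of means was -1.29 in *Tlr7* KO (exact permutation p = 0.0357, adjusted p = 0.107) and -1.90 in *Ifnar1* KO (exact permutation p = 0.1, adjusted p = 0.15).

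Against H2-DM, whose action H2-DO restrains, the log2 ratio of *H2-Oa* to *H2-DMa* was -1.37, -1.69 and -1.61 in WT, -2.07, -2.08, -3.08, -3.53 and -3.36 in *Tlr7* KO and -3.15, -2.63 and -4.89 in *Ifnar1* KO. The ratio of *H2-Ob* to *H2-DMb1* was 0.62, 0.31 and 0.74 in WT, -1.26, -0.37, -2.66, -1.28 and -1.30 in *Tlr7* KO and 0.18, -0.21 and -2.12 in *Ifnar1* KO. In both ratios every KO mouse was again below every WT mouse. The mean differences from WT were -1.27 for *H2-Oa* to *H2-DMa* (exact permutation p = 0.0357, adjusted p = 0.107) and -1.93 for *H2-Ob* to *H2-DMb1* (exact permutation p = 0.0179, adjusted p = 0.107) in *Tlr7* KO. In *Ifnar1* KO they were -2.0 and -1.27 (exact permutation p = 0.1, adjusted p = 0.15 for each). With the counts of *H2-DMb1* and *H2-DMb2* summed, an alternative chosen after seeing the data, *H2-Ob* differed from WT by -1.47 (*Tlr7* KO) and -0.94 (*Ifnar1* KO).

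*Ifnar1* KO 3, with 1 count of each H2-DO chain, had the lowest of the *Ifnar1* KO ratios in all 4, and its values there depend on the offset of 0.5 added to each count. Without it the differences between *Ifnar1* KO and WT were smaller, at -1.35 for *H2-Ob* to *H2-Ab1*, -1.51 for *H2-Oa* to *H2-Aa*, -1.33 for *H2-Oa* to *H2-DMa* and -0.57 for *H2-Ob* to *H2-DMb1*.

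**Figure D3:**
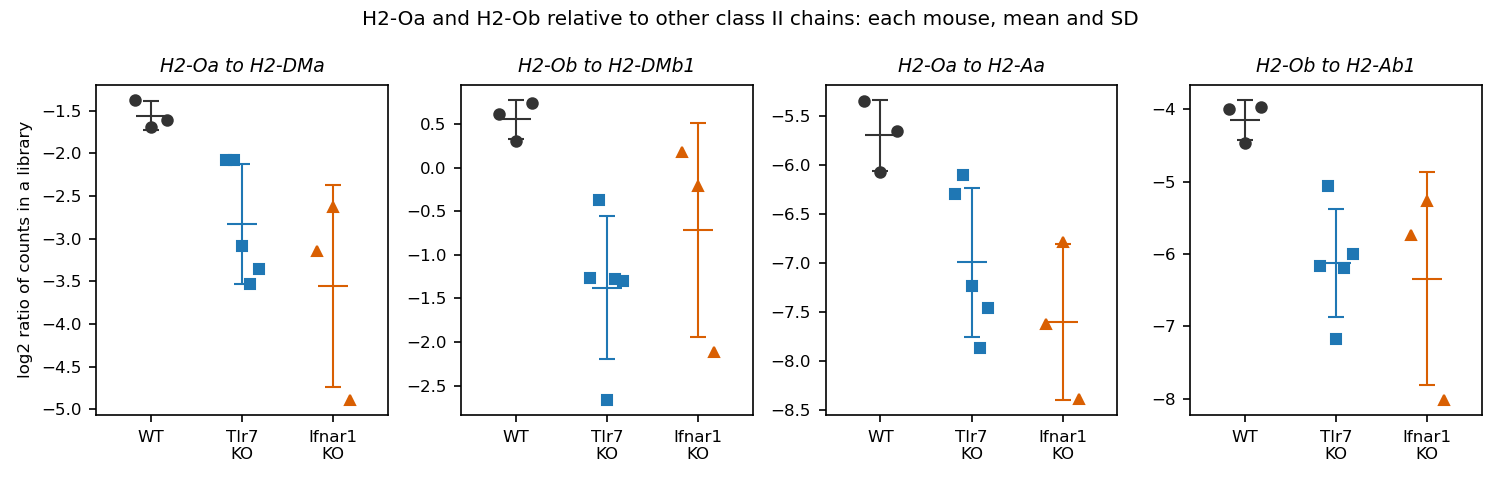
Log2 ratio of counts within a library for *H2-Oa* or *H2-Ob* over a partner chain, with 1 point per mouse and the mean with SD of 3 WT, 5 *Tlr7* KO and 3 *Ifnar1* KO mice. Every KO mouse lies below every WT mouse in all 4 panels, and the KO groups overlap each other.

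In the main table all 8 ratios compared between WT and a KO separated the groups without overlap, and 7 of the 8 did so in the second table, other than *H2-Oa* to *H2-Aa* in *Tlr7* KO. None of the 12 tests passed an adjusted p of 0.05. Between the KO groups the 4 ratios overlapped (exact permutation p from 0.321 to 0.821, unadjusted). Among ratios without an H2-DO chain, that of *H2-Aa* to *Cd74* lay between -1.24 and -0.87 in all 11 mice, with the WT values spanning -1.13 to -0.87. The log2 ratio of *H2-DMb2* to *H2-DMb1*, between which the split of reads is uncertain, was 1.64, 1.34 and 1.68 in WT, 1.10, 1.21, 0.35, 0.89 and 0.96 in *Tlr7* KO and 2.08, 0.91 and 0.21 in *Ifnar1* KO. It was lower in every *Tlr7* KO mouse than in every WT mouse and overlapped in *Ifnar1* KO, so a separation from WT is not particular to the H2-DO chains.

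Levels of the members were compared with each other per length, as CPM per kilobase of the annotated transcript with the longest coding sequence. In WT the medians in this unit were 622 for *Cd74*, 355 for *H2-Aa*, 279 for *H2-Eb1* and 258 for *H2-Ab1*, then 26.8 for *H2-DMb2*, 14.6 for *H2-DMa*, 12.1 for *H2-Ob*, 8.48 for *H2-DMb1*, 7.26 for *H2-Oa* and 6.0 for *Ciita*. The invariant chain and the classical chains thus stood above the endosomal H2-DM and H2-DO chains and the coactivator. Neighbours such as *H2-Eb1* and *H2-Ab1*, or *H2-Oa* and *Ciita*, overlapped over the WT mice. The order of the classical chains depended on the count table. In the second deposited table, there scaled by library totals alone, the WT medians were 352 for *H2-Eb1*, 183 for *H2-Aa* and 180 for *H2-Ab1*, with *Cd74* at 871. The H2-DM chains were at 47.3 for *H2-DMb2*, 26.5 for *H2-DMa* and 6.99 for *H2-DMb1* there, so distances between genes depended on the table as well. The main table held 4.65 times the counts of the second for *H2-Aa* and 3.56 times for *H2-Ab1*, against 1.73 times over all genes, and the cause was not tested. NOD mice are known to carry another H2 haplotype than the reference genome, and the part of this in the levels of these polymorphic genes was not tested. The log2 fold change of *H2-Ab1* in *Tlr7* KO was -2.05 in the second table and -2.04 in the main table.

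Lymphocyte markers were lower along with the class II genes, while markers of other cell types were DE and lower only in part. The 10 B cell markers, among them *Cd79a*, *Cd79b* and *Ms4a1*, were all DE and lower in both KO groups, with medians of -3.28 and -4.26 on the log2 scale, respectively. Their summed level was 88.8 to 308 CPM in WT, 6.76 to 56.1 CPM in *Tlr7* KO and 2.72 to 22.2 CPM in *Ifnar1* KO, and WT 2, *Tlr7* KO 2 and *Ifnar1* KO 2 held the same places as for the class II genes. Of 8 T cell markers, 7 were DE and lower in *Tlr7* KO and all 8 in *Ifnar1* KO, with summed levels of 21.9 to 68.4, 5.05 to 27.4 and 1.47 to 13 CPM in WT, *Tlr7* KO and *Ifnar1* KO. Of 8 dendritic cell markers, 3 and 2 were DE and lower (median -1.44 and -1.90), with summed levels of 6.32 to 23.6, 5.09 to 10.3 and 3.52 to 7.58 CPM. The fitted change was negative for 7 of the 8 in each KO. Some had few counts, *Xcr1* 0 to 28 and *Clec9a* 0 to 46 per mouse. *Clec9a* was at -3.59 in *Ifnar1* KO without being DE (adjusted p = 0.0576), so few calls do not show that levels were kept. Of 8 macrophage markers, 4 were lower and 1 higher in each KO (median -0.49 and -1.16), with summed levels of 147 to 260, 92.8 to 131 and 46.8 to 93.9 CPM. Of 7 gland epithelial markers, 1 was lower and 2 higher in *Tlr7* KO and 1 was lower in *Ifnar1* KO (median 0.24 and 0.13). With TMM scaling their summed levels of 560 to 691, 734 to 840 and 755 to 781 CPM were higher in every KO mouse than in every WT mouse. The higher sums rest on the TMM factors, 1.43, 0.873 and 1.48 in WT 1 to 3 and 0.688 to 1.09 in the KO mice. With library size as the only scaling the groups overlap. The part of cell makeup in the class II differences was not tested.

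The members differed in how closely they kept to the B cell markers. As a log2 ratio to the summed B cell markers, *H2-Ab1* was at 0.20 to 0.46 in WT, 0.89 to 2.6 in *Tlr7* KO and 1.55 to 2.58 in *Ifnar1* KO, so that it was higher per B cell marker in every KO mouse. *Cd74*, *H2-Aa*, *H2-Eb1*, *H2-DMa* and *Ciita* were apart in the same direction in both KO groups. *H2-Oa* lay at -5.11 to -4.91 in WT, -5.75 to -4.31 in *Tlr7* KO and -6.02 to -4.75 in *Ifnar1* KO, with overlap in both comparisons. *H2-Ob* lay at -4.02 to -3.76 in WT and -4.80 to -4.12 in *Tlr7* KO, lower without overlap, and at -6.02 to -3.72 in *Ifnar1* KO, with overlap. *H2-DMb1* and *H2-DMb2* were apart upward in *Tlr7* KO and overlapped in *Ifnar1* KO. *H2-Oa* and *H2-Ob* were thus the members that were apart upward in neither KO group, a description without a test.

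**Figure D4:**
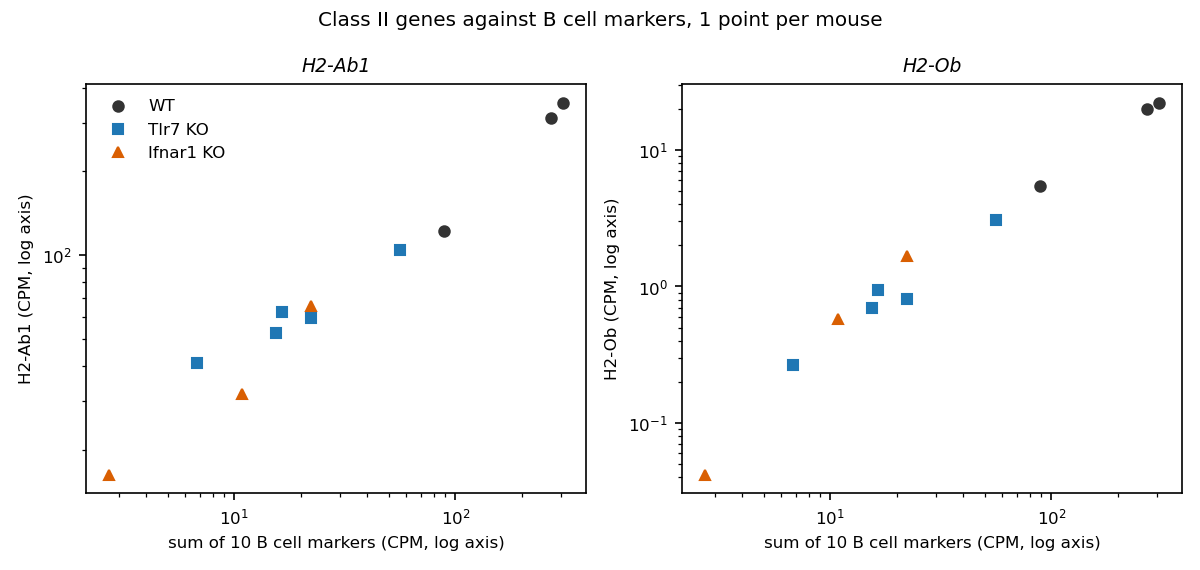
*H2-Ab1* and *H2-Ob* against the summed level of 10 B cell markers, both in CPM on log axes, with 1 point per mouse. *H2-Ab1* spans 16.2 to 352 CPM over the 11 mice and *H2-Ob* 0.0419 to 22 CPM, while the B cell markers span 2.72 to 308 CPM.

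Over the 11 mice, the 45 pairs of members had Pearson correlations of log2 CPM from 0.948 to 0.999, a description in which the mice share their groups. The 5 tested genes most like *H2-Ab1* were *Coro1a*, *Il2rg*, *Ptprc*, *Pld4* and *Cd52*, with r from 0.998 to 0.994. *Ptprc* encodes the pan-leukocyte antigen CD45, *Il2rg* the common cytokine receptor gamma chain and *Coro1a* an actin-binding protein of leukocytes. The 5 most like *H2-Ob* were *Stk17b*, *Chst3*, *Fcrl1*, *Ets1* and the gene ENSMUSG00000099065, with r from 0.997 to 0.994. *Fcrl1* encodes a B cell surface receptor and *Ets1* a lymphocyte transcription factor.

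Factors that control class II transcription had smaller median changes than the class II genes. Of 15 listed genes 14 were tested, since *Ifng* was too low, and 9 were DE and lower in *Tlr7* KO and 5 in *Ifnar1* KO, with none higher and medians of -0.57 and -0.98. Among those with the highest mean CPM, which takes no account of length, were *Irf8*, *Irf1*, *Nfyc*, *Nfya* and *Ifngr1*. *Irf1*, an IFN-induced factor, fell by 1.08 on the log2 scale in *Tlr7* KO (adjusted p = 0.0401) and fell by 2.25 in *Ifnar1* KO (adjusted p = 0.0281). *Ifngr1*, a chain of the receptor for type II IFN, fell by 0.64 (adjusted p = 0.0185) and fell by 0.97 (adjusted p = 0.0341). *Irf8*, a factor of B cells and myeloid cells, fell by 0.90 in *Tlr7* KO (adjusted p = 0.0266) and was at -1.02 in *Ifnar1* KO (adjusted p = 0.0517). The NF-Y subunit *Nfyc* was at -0.09 and -0.15 (adjusted p = 0.368 and 0.388), and *Nfya* at -0.43 and 0.20 (adjusted p = 0.0506 and 0.388). Of the 6 subunits of the RFX and NF-Y complexes, which bind the X and Y boxes, 1 was DE, *Rfx5* at -0.70 in *Tlr7* KO (adjusted p = 0.0397, groups overlapping), named after its values were seen. *Rfx5* was at -1.0 in *Ifnar1* KO (adjusted p = 0.0521), where every KO mouse was below every WT mouse. *Ifng* had 0.342 CPM in WT 1 and no more than 0.0435 CPM in any other mouse, below the 3-count floor there.

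Of 9 genes of antigen processing in the endosome, 5 were DE and lower and 1 higher in *Tlr7* KO, and 7 were lower in *Ifnar1* KO, with medians of -0.52 and -0.90. The 6 with the highest mean CPM were *Ctsd*, *Ctsl*, *Ctsb*, *Cst3*, *Ctsz* and *Ctss*. *Ctss* encodes cathepsin S, the protease that trims the invariant chain in B cells and dendritic cells, and was at 40.9 to 92.7 CPM in WT, 23.6 to 40.0 CPM in *Tlr7* KO and 6.40 to 24.2 CPM in *Ifnar1* KO. It fell by 1.15 on the log2 scale in *Tlr7* KO (adjusted p = 0.00756) and fell by 2.36 in *Ifnar1* KO (adjusted p = 0.026). The protease inhibitor *Cst3* fell by 0.54 (adjusted p = 0.00397) and fell by 0.89 (adjusted p = 0.021), and cathepsin Z, *Ctsz*, by 0.39 (adjusted p = 0.021) and fell by 0.68 (adjusted p = 0.0316). Cathepsin B, *Ctsb*, was at -0.20 in *Tlr7* KO (adjusted p = 0.217) and fell by 0.90 in *Ifnar1* KO (adjusted p = 0.0405). With TMM scaling cathepsin D, *Ctsd*, rose by 0.31 in *Tlr7* KO (adjusted p = 0.0174) and was at 0.14 in *Ifnar1* KO (adjusted p = 0.503). The rise rests on the TMM factors: *Ctsd* had 5667, 5169 and 7387 counts in WT 1 to 3 and 4760 to 6856 in *Tlr7* KO. With library size as the only scaling these groups overlap and the *Tlr7* KO mean is not higher. Cathepsin L, *Ctsl*, which serves thymic epithelium in place of cathepsin S, was at -0.11 and 0.25 (adjusted p = 0.606 and 0.507). *Lgmn*, an endosomal protease named after its values were seen, was the single gene of this list DE between the KO groups, 0.91 higher in *Tlr7* KO on the log2 scale (adjusted p = 0.0458).

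Of 8 genes that act on class II at the cell surface or beside it, 6 were DE and lower and 1 higher in *Tlr7* KO, and 5 were lower in *Ifnar1* KO, with medians of -1.82 and -2.91. *March1*, the ubiquitin ligase that removes class II from the surface, was at 3.88 to 8.48 CPM in WT and fell by 2.40 on the log2 scale in *Tlr7* KO (adjusted p = 0.00233) and fell by 3.44 in *Ifnar1* KO (adjusted p = 0.0207). *Cd83*, which opposes *March1*, fell by 2.14 (adjusted p = 0.00787) and fell by 2.92 (adjusted p = 0.0249). *March8*, its widely expressed relative, was at 43.4 to 52.2 CPM in WT, 74.8 to 79.5 CPM in *Tlr7* KO and 48.2 to 69.4 CPM in *Ifnar1* KO. *March8* rose by 0.71 in *Tlr7* KO (adjusted p = 0.000861) and was at 0.36 in *Ifnar1* KO (adjusted p = 0.155). These values rest on the TMM scaling, and with library size as the only scaling WT and *Tlr7* KO overlap. *Cd4*, the coreceptor that binds class II, fell by 1.95 (adjusted p = 0.00997) and fell by 3.04 (adjusted p = 0.0295), and the costimulatory receptor *Cd40* by 1.69 (adjusted p = 0.0177) and fell by 2.91 (adjusted p = 0.0343). *Cd86*, a ligand of CD28, fell by 1.40 in *Tlr7* KO (adjusted p = 0.0208) and was at -0.52 in *Ifnar1* KO (adjusted p = 0.344).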

How the data were processed

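Reads from lacrimal gland RNA of 3 WT, 5 *Tlr7* KO and 3 *Ifnar1* KO mice were quantified by the authors with salmon against mm10 and summed to genes with tximport, and these estimated counts were deposited in a table of 19058 genes, rounded to whole numbers. The table is named as normalized, but its column totals differ as raw counts do. A second table deposited by the authors lists counts of 39017 genes and was used as a check. How it was counted is not given in the sources used here, though the submitters' processing notes name HISAT2 2.1.0. In it 1 column, of a mouse with no sample, was not used.

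Genes were matched by Ensembl ID. Tests used R 4.3.3, edgeR 4.0.16 (TMM, quasi-likelihood test, Benjamini-Hochberg over the genes tested) and DESeq2 1.42.0 as an alternative, in separate fits per pair of groups. Ratios used log2 of counts plus 0.5 and a two-sided exact permutation test of the difference of means. Fits were tested on simulated data. Intervals cover 95%. Annotation and transcript lengths come from GENCODE M21 on GRCm38. Counting floors cover counting error only. Total counts per library were 20512315 to 28814250.

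The members, lists and tests were chosen with earlier results of these data known. Named are all 10 members, the 6 genes of each pathway list with the highest mean CPM (1 of them is not reported here), and the 5 genes most correlated with *H2-Ab1* and with *H2-Ob*. Alternatives were DESeq2, RLE factors, library size only, other count filters, all 11 mice in a fit, a replicate block, the second table, an offset of 2 and each mouse left out.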

Additional observations from a re-analysis of the deposited data

Results flagged for a closer look

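*Ciita* in the *Tlr7* KO mice held 1 value far from the rest. *Tlr7* KO 2 was at 7.04 CPM and the other mice of the group at 3.08 to 3.91 CPM, and on the log2 scale the gap from *Tlr7* KO 2 to the nearest mouse was 0.711 of the range of the group, just past Dixon's critical value of 0.71 for 5 mice. Among 14 sets of values examined in this way, chance alone flags about 1 in 20. Without *Tlr7* KO 2 all 10 members were DE in *Tlr7* KO, among 4298 of 13937 genes tested. *Tlr7* KO 2 was also the highest of its group for the other 9 members and for the summed B cell markers, at 56.1 CPM.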

How the results depend on the processing

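In *Tlr7* KO against WT, 10 members were DE under every alternative other than the replicate block. In *Ifnar1* KO against WT, 10 were DE with all 6 mice other than under the block, and leaving out 1 mouse gave between 0 and 10. Between the KO groups leaving out 1 mouse gave 0 to 3. Leaving out the libraries with salivary gland genes was an alternative added after seeing the data. All 10 members were then DE in *Tlr7* KO, among 2601 of 12903 genes tested, and only *Ifnar1* KO 3 was left of its group. *H2-Oa* and *H2-Ob* were then at -7.14 and -8.24 in *Ifnar1* KO, a fit that cannot carry a call with 1 mouse in a group. That mouse had 1 count of each, under the 3-count floor, so these values are not exact folds. The labels do not say that replicate numbers pair these mice. Deviations of same-numbered mice correlated at -0.46 to -0.04 in WT with *Tlr7* KO and -0.47 to -0.15 in WT with *Ifnar1* KO. Between the KO groups they correlated at 0.06 to 0.33, and those of differently numbered mice at -0.32 to 0.09. So few pairs cannot decide whether the numbers pair the KO mice. With the replicate block 0, 0 and 8 members were DE, and 14, 0 and 502 genes in all. With library size as the only scaling, the median of all genes became -0.54, -0.31 and -0.19, and DE genes split 4275 lower to 123 higher in *Tlr7* KO in place of 2429 to 2135 and 1288 to 51 in *Ifnar1* KO in place of 1735 to 942, with all 10 members lower in both. No DE member changed direction, and among differences that were not DE the one of *H2-Ob* between the KO groups turned from 0.58 to -0.20 without *Tlr7* KO 2. The 12 ratio tests say nothing of stability, since an exact permutation of 3 mice against 3 cannot go below p = 0.1 and of 3 against 5 not below 0.0179, before adjustment. Between the KO groups the difference in the *H2-Ob* to *H2-Ab1* ratio was 0.22, and -0.04 with an offset of 2 and -0.62 in the second table.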
